A study of Mus musculus with 4 samples.

Results

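Insulin leaves the beta cell when secretory granules dock at the plasma membrane and fuse with it. The genes described here encode 9 proteins of that step: the SNARE proteins Stx1a, Snap25 and Vamp2, the synaptotagmins Syt7 and Syt13, the small GTPase Rab3a, the granule docking protein granuphilin (Sytl4), and the priming and scaffold proteins Unc13a and Rims2. They were chosen by name, and all 9 were found among the 54532 genes of the table. RNA of pancreatic islets was sequenced in 4 libraries from male C57BL/6 mice of 10 to 12 weeks, 2 of wild type (wild type 1 and 2) and 2 carrying a transgene, named miR-29a/b-1 in the labels, for overexpression in pancreatic beta cells (transgenic 1 and 2). The labels name neither the promoter nor the founder line of the transgene, and leave unsaid whether a library is of 1 mouse or of a pool, and whether the pair of a group are separate animals. The p-values thus measure no more than the spread of these 4 libraries, part or all of which may be technical. The RNA is of whole islets. In such RNA, fewer cells of a type and less RNA per cell cannot be told apart, and a change within beta cells is diluted by the other islet cells.

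In the fusion step, a SNARE of the granule (VAMP2) and SNAREs of the plasma membrane (syntaxin 1A and SNAP-25) wind into a bundle that draws both membranes together. Munc13 proteins prime the bundle, RAB GTPases and their effectors tether and dock the granule, RIM proteins hold granules near calcium channels, and synaptotagmins such as synaptotagmin 7 couple fusion to calcium. Granuphilin binds RAB27A and syntaxin 1A, and beta cells with more of it dock more granules but secrete less insulin. miR-29 is a family of short RNAs that pair through their seed with messenger RNAs and lower their level or translation. Stx1a is a described target of miR-29 in beta cells, and so is Onecut2, a transcription factor that represses granuphilin.

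The sequences show which member carries a match to the transgene's microRNAs. The mature forms made from the miR-29a/b-1 locus on chromosome 6 have the same seed (bases 2 to 8, in capitals), which miR-29c shares (RefSeq, GRCm38.p6).
mmu-miR-29a-3p: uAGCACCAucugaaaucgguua
mmu-miR-29b-3p: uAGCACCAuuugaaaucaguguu
Of the 9 members, 1 had the 7 bases that pair with this seed (TGGTGCT) in an annotated 3' UTR, namely Stx1a. Onecut2 held them too. The Stx1a match lies in the 3' UTR of 1 of its transcripts (Stx1a-201), on the plus strand of chromosome 5, 135050359 to 135050365 (GRCm38, GENCODE M21). A stretch of 30 bases around it, in the sense of the transcript with the paired bases in capitals, is shown beside that of Stx3 and those of Syt14 and of Unc13b, the relative of Unc13a, each of which has another match not shown.
Stx1a: aggtggggaccagctggtcacaTGGTGCTg
Stx3: cacagtgttctgttttgagggaTGGTGCTt
Syt14: attggacattataagaccaaccTGGTGCTt
Unc13b: tgaatccccaacaagtagtctgTGGTGCTa
The Stx3 match is on chromosome 19 (11775836 to 11775842, minus strand), that of Syt14 on chromosome 1 (192895204 to 192895210, minus strand) and that of Unc13b on chromosome 4 (43263788 to 43263794, plus strand). No 3' UTR of Sytl4, Snap25, Vamp2, Syt7, Syt13, Rab3a, Unc13a or Rims2 held these 7 bases. Among the 10694 compared protein-coding genes with a 3' UTR of at least 50 bases, 16.5% held them. A match is a description of letters and not a shown site of binding.

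Values in a pair are in the order of the library number. They are FPKM, fragments per kilobase of gene scaled for library size, so that levels can be compared between genes. Reads in genes, recovered from the FPKM, came to between 21670854 and 27080907 a library, and 1 read of a gene of 1 kilobase was worth 0.0386 to 0.0476 FPKM. All 9 members were among the 12716 genes with at least 1 FPKM in at least 2 libraries, the genes compared between genotypes. Libraries with the same number in their names resembled each other (given below for the members). A fold change of transgenic over wild type is given within number 1 and within number 2 beside that over all libraries. All 10 listed beta cell markers were present in each library. Ins2 took 20.1% and 26.6% of the reads in the wild-type pair and 12.8% and 25.5% in the transgenic pair.

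The members differed widely in level. Syt13 stood highest, at rank 71 of the 12716 genes compared by mean FPKM, and Sytl4 followed at rank 372. Vamp2, Rab3a and Syt7 came next (ranks 813, 1104 and 1112), then Snap25 (2668) and Unc13a (3501). Stx1a (6991) and Rims2 (7558) were the least abundant, so the syntaxin of the fusion complex was lower in FPKM than its SNARE partners in each library. Rab3a and Syt7 exchanged places between libraries, as did Stx1a and Rims2, and the ranges of Vamp2 and Rab3a and those of Snap25 and Unc13a overlapped although the order was the same in all 4 libraries. Every other pair of neighbours in this order was separated in all 4 libraries, with no overlap of their ranges.

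**Figure D1:**
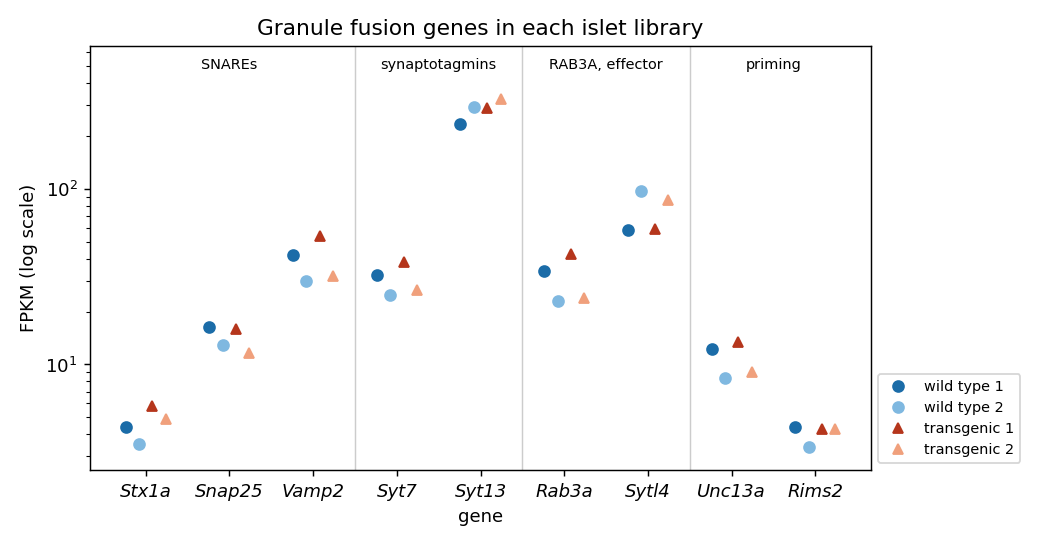
FPKM (log axis) of the 9 granule fusion genes, with 1 point per library and genes ordered by role (SNAREs, synaptotagmins, Rab3a and the effector Sytl4, priming and scaffold genes). Circles are wild type and triangles transgenic islets, dark for number 1 and light for number 2, and in most genes points of 1 number lie together, while Stx1a alone has both triangles above both circles.

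No member passed the test between genotypes. In limma on log2(FPKM + 1), adjusted over all genes compared, 0 of the 9 were called, and 0.0% of all genes compared were called (adjusted p = 1.00 for each member). At an unadjusted p under 0.05 there were also 0 of 9, against 0.653% of the genes compared (83), and voom on the recovered reads called 0 as well. The members' median log2 fold change was 0.17, beside 0.01 for all genes compared. Within both numbers 6 of 9 members were higher in transgenic islets and 1 was lower, where 33.5% and 27.4% of the genes compared were. Acinar markers were higher in the transgenic library of both numbers as well (values below). With each library left out in turn, Stx1a and Syt13 kept their direction and the other 7 did not. Without transgenic 1 the log2 fold change was -0.14 for Vamp2, -0.0942 for Syt7, -0.23 for Rab3a, -0.15 for Unc13a and 0.19 for Sytl4. Without wild type 2 it was -0.014 for Vamp2, -0.024 for Syt7, -0.0988 for Rab3a, -0.14 for Unc13a, 0.28 for Sytl4 and -0.0312 for Rims2. Snap25 turned to 0.0717 without wild type 1 and to 0.12 without transgenic 2.

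Stx1a, the plasma membrane syntaxin and the member with the seed match, was not lower in transgenic islets. It lay at 4.38 and 3.53 FPKM in the wild-type pair (279 and 244 reads) against 5.83 and 4.89 in the transgenic pair (401 and 274 reads). Both transgenic libraries were above both wild-type ones, the only member whose groups did not overlap. Of the genes compared, 12.2% (1555 of 12716) were separated in this direction (9.03% in the other, with 0 members). Stx1a has a GC content of 58.2%, and of the 2961 compared genes of at least 55% GC, 860 were separated in this direction. The means were 3.96 ± 0.60 and 5.36 ± 0.67 FPKM (SD, n = 2 each), and the log2 fold change was 0.36 ± 0.16 (standard error), with 0.34 in number 1 and 0.38 in number 2. Its unadjusted p in limma, 0.0799, was the smallest of the members and ranked 188 among the 12716 genes (adjusted p = 1.00). As a linear ratio of FPKM, transgenic over wild type came to 1.33 in number 1 (95% exact binomial interval 1.14 to 1.56) and 1.39 in number 2 (1.16 to 1.65), intervals that cover counting error only.

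Snap25, the other SNARE of the plasma membrane, lay at 16.3 and 12.8 FPKM in the wild-type pair against 15.8 and 11.5 in the transgenic pair. The libraries numbered 1 were the high ones in both genotypes, and transgenic islets were slightly lower within each number (log2 fold change -0.04 and -0.14, and -0.09 ± 0.22 over all libraries). That direction turned with the curve on GC content removed, as given below (0.015). Vamp2, the granule SNARE, lay at 41.8 and 29.9 FPKM in the wild-type pair against 53.6 and 31.9 in the transgenic pair. Transgenic 1 was the highest library, while transgenic 2 stayed within the wild-type range. Its log2 fold change was 0.35 in number 1 and 0.09 in number 2, or 0.22 ± 0.33 over all libraries (limma, n = 2 each).

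Synaptotagmin 13, which unlike synaptotagmin 7 is not regarded as a calcium sensor, made up most of the synaptotagmin message. Syt13 lay at 233 and 292 FPKM in the wild-type pair against 288 and 323 in the transgenic pair. In each number the transgenic library was higher (log2 fold changes of 0.30 and 0.15), and transgenic 1 was below wild type 2, so the groups overlapped. Over all libraries the log2 fold change was 0.23 ± 0.21 (unadjusted p = 0.335 in limma, n = 2 each). Of the summed FPKM of 17 synaptotagmin genes, Syt13 held 66.5% to 76.9% in the 4 libraries, followed by Syt4 with a mean of 36.5 FPKM. Syt7 held 6.31% to 9.51% and ranked 3. It lay at 32.5 and 24.8 FPKM in the wild-type pair against 38.4 and 26.5 in the transgenic pair, with log2 differences by number of 0.24 and 0.09 (0.17 ± 0.26 over all). The best known fast calcium sensors of neurons were scarce: Syt1 stood at 0.800 to 1.17 FPKM and Syt2 at 1.41 to 2.25.

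Rab3a, which cycles on and off granules with its bound nucleotide, lay at 34.1 and 23.0 FPKM in the wild-type pair against 42.4 and 23.8 in the transgenic pair. Number 1 was higher than number 2 in both genotypes. The log2 fold change was 0.31 in number 1 and 0.05 in number 2 (0.18 ± 0.36 over all libraries). Rab3d was about as abundant, with a mean of 32.5 FPKM beside 30.8 for Rab3a, which held 37.8% to 48.0% of the RAB3 family's FPKM.

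Granuphilin message did not follow genotype. Sytl4 lay at 58.6 and 96.9 FPKM in the wild-type pair against 58.8 and 86.5 in the transgenic pair. The libraries numbered 2 were both above those numbered 1, the reverse of Vamp2 and Rab3a. Its log2 fold change was 0.01 in number 1 and -0.16 in number 2, and -0.08 ± 0.34 over all libraries (unadjusted p = 0.827 in limma, n = 2 each), so a rise of granuphilin message was not seen in either number. In number 1 the ratio of transgenic to wild type was 1.00 (exact interval 0.972 to 1.04, counting error only), and in number 2 it was 0.892 (0.869 to 0.916). Sytl4 held 73.1% to 84.4% of the FPKM of the 5 synaptotagmin-like genes, the next being Sytl1 with a mean of 10.0 FPKM.

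Onecut2, the factor that represses granuphilin, had few reads. There were 65 and 52 reads in the wild-type pair and 34 and 33 in the transgenic pair, or 0.203 and 0.150 against 0.0985 and 0.117 FPKM. Both transgenic libraries were below both wild-type ones, as in 9.03% of the genes compared, to which Onecut2 does not belong. Its GC content is 42.6%, and 960 of the 6323 compared genes under 50% GC were separated in this direction. The ratio of transgenic to wild type was 0.484 in number 1 (exact interval 0.310 to 0.744) and 0.783 in number 2 (0.490 to 1.23), so in number 2 the difference was within counting error. Onecut2 was too low for the genes compared. In voom over genes of at least 10 reads in 2 libraries, chosen after seeing the data, its log2 fold change was -0.70 (unadjusted p = 0.109, adjusted p = 1.00).

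**Figure D2:**
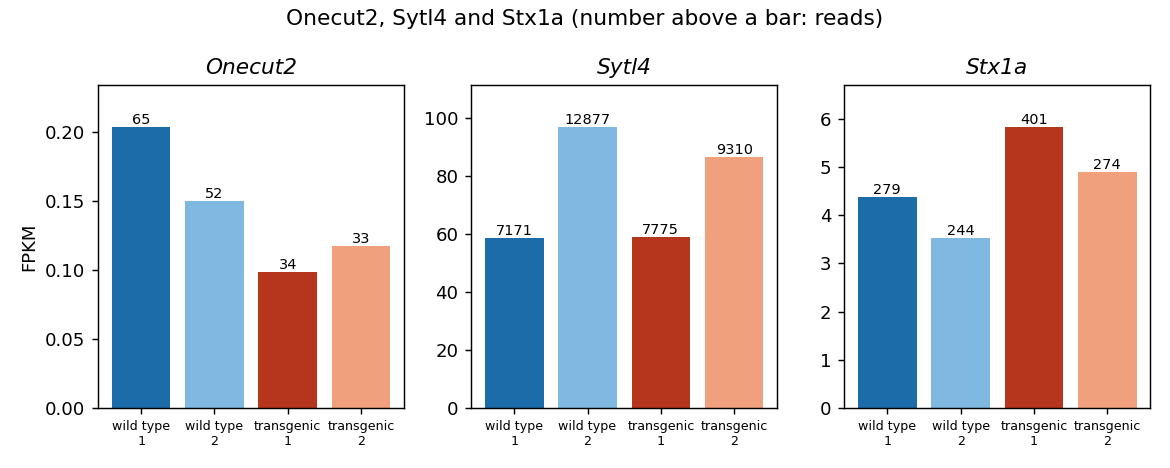
FPKM of Onecut2, Sytl4 and Stx1a in each library, with the reads above each bar; the 3 vertical axes start at 0 and differ in scale. Onecut2 is lower and Stx1a higher in both transgenic libraries, and Sytl4 separates number 1 from number 2.

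Unc13a, the main Munc13 priming factor of the islet in these data, lay at 12.3 and 8.37 FPKM in the wild-type pair against 13.4 and 9.09 in the transgenic pair. The difference was even, with a log2 fold change of 0.11 in each number (0.11 ± 0.27 over all), and much smaller than that between numbers. It held 76.1% to 79.3% of the FPKM of the 4 Unc13 genes. Rims2, a scaffold that binds RAB3 and Munc13, lay at 4.41 and 3.40 FPKM in the wild-type pair against 4.31 and 4.28 in the transgenic pair. Wild type 2 was the one low library, and the log2 fold change was -0.03 in number 1 and 0.26 in number 2 (0.12 ± 0.15 over all). Within the RIM family Rims2 ranked second and held 8.98% to 14.4% of the FPKM, behind Rims3 with a mean of 30.5 FPKM, while Rims1 stood at 0.0422 to 0.0646 FPKM.

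**Figure D3:**
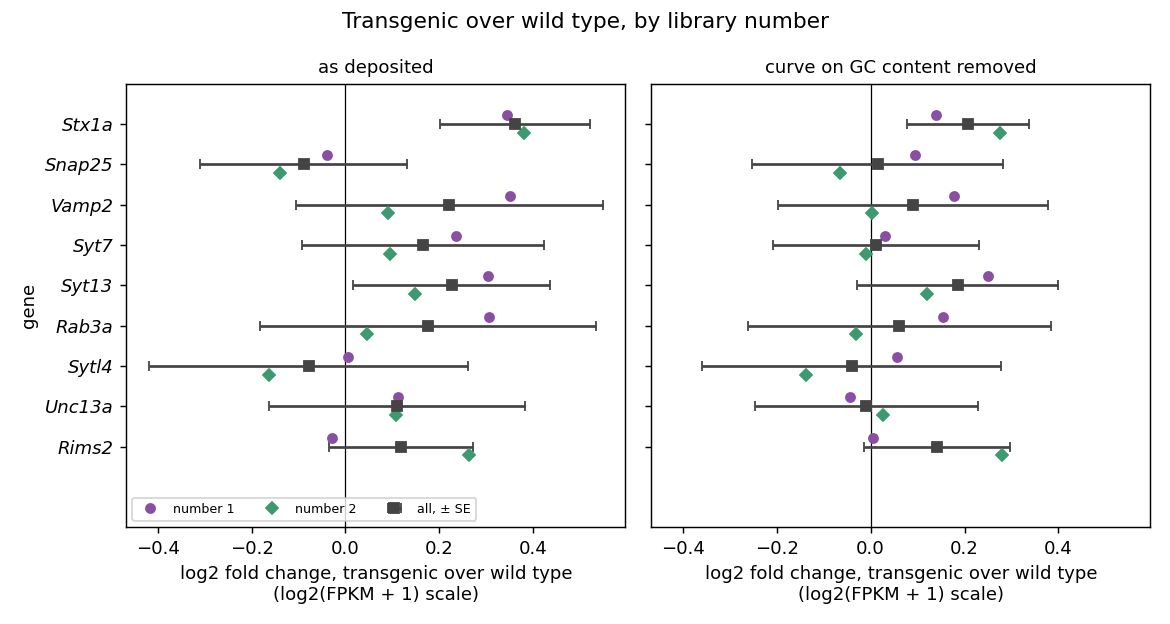
Log2 fold change of transgenic over wild type for each gene on the log2(FPKM + 1) scale, as deposited (left) and with each library's curve on GC content removed (right). Squares with bars are the value over all 4 libraries and its standard error, circles number 1 and diamonds number 2; Stx1a goes from 0.36 to 0.21, and Vamp2, Syt7, Rab3a and Unc13a move close to 0.

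The library number separated 8 of the 9 members, and genotype separated 1. In 6 members (Snap25, Vamp2, Syt7, Rab3a, Unc13a and Rims2) both libraries numbered 2 were below both numbered 1, and in 2 (Syt13 and Sytl4) they were above; across the genes compared the shares were 32.4% and 34.4%. Rims2 was separated by a narrow margin, with the transgenic pair nearly level at 4.31 and 4.28 FPKM. In voom with genotype and number as terms, number called 7 of 9 members and 43.7% of the genes compared, and genotype called 0 of 9 members and 1.71% of the genes. At an unadjusted p under 0.05 for genotype in that fit there were 3 of 9 members (Stx1a, Vamp2 and Syt13) and 2053 of 12716 genes. With the curve on GC content also removed there were 0 of 9 members and 780 genes. Rab3a had a log2 fold change of number 2 over number 1 of -0.55 in wild type and -0.81 in transgenic islets, and Sytl4 of 0.72 and 0.55. Marker genes of other cells differed between the same libraries. The 14 acinar markers summed to 5147 and 1097 FPKM in the wild-type pair and to 6940 and 1896 in the transgenic pair. They differed by genotype too: the 13 high enough to be compared had a median log2 fold change of transgenic over wild type of 0.47 in number 1 and 0.77 in number 2. The 11 markers of Schwann cells and neurons, cells that also use several of these proteins, summed to 83.1 and 52.3 against 79.3 and 54.7 FPKM, of which Tubb3 gave 54.3 and 19.5 against 48.4 and 23.6. None of the markers in either list was at 0 in a library, and the glial genes Sox10 and Gfap stood under 0.4 FPKM throughout. The part of these cells in the members' values, by number or by genotype, was not tested.

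GC content moved with the fold changes. The 5 members of at least 55% GC (Stx1a, Vamp2, Syt7, Rab3a and Unc13a) were the ones higher in both numbers together with Syt13 (52.1%), and the 3 under 50% GC (Sytl4, Snap25 and Rims2) were not. Over all compared genes, 66.0% of those of at least 55% GC were higher in both numbers and 14.2% of those under 50%. The medians of these 2 classes were 0.15 and -0.05 on the log2 scale, and the bounds of the classes were set after the values were seen. With a lowess curve on GC content removed from each library, a step added after seeing the data, the members' median fold change went from 0.17 to 0.06. Stx1a went from 0.36 to 0.21 ± 0.13, with 0.14 in number 1 and 0.28 in number 2, and Syt13 from 0.23 to 0.19 ± 0.22. Vamp2 went to 0.09, Rab3a to 0.06, Syt7 to 0.011 and Unc13a to -0.0089. In the bin of 57.5% to 60% GC, which holds Stx1a and Syt7, the median over 965 genes was 0.17. The part of GC content in the members' values was otherwise not tested.

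**Figure D4:**
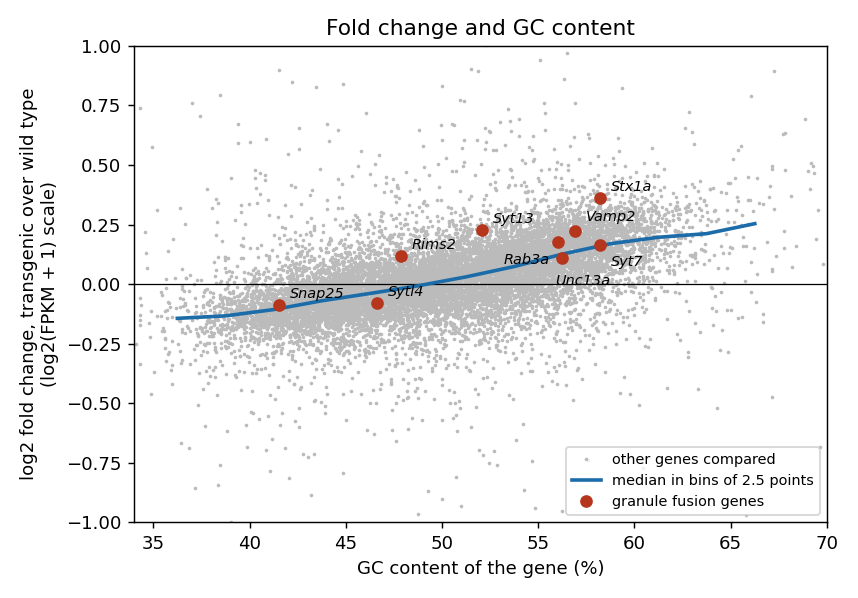
Log2 fold change of transgenic over wild type against the GC content of the gene for the compared genes (grey), with the median in bins of 2.5 points (line) and the 9 granule fusion genes (red). Of the genes compared, 79 lie outside the axes and 11 have no GC value; the line climbs from -0.14 at the lowest to 0.25 at the highest GC content, and Stx1a, Syt13 and Rims2 lie farthest above it among the 9.

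The wider set of exocytosis genes, 96 genes by role, had a median just below 0. Of the 69 high enough to be compared, limma called 0 higher and 0 lower, with 0 at an unadjusted p under 0.05. Their median log2 fold change was -0.03, with 16 higher and 27 lower in both numbers, where 33.5% of all genes compared were higher and 27.4% lower. The median GC content of the set was 48.4%, and of all compared genes under 50% GC 14.2% were higher and 43.7% lower in both numbers. After removal of the GC curve the median fold change of the set was -0.0068. Among the other SNAREs 7 of 12 were lower in both numbers and 2 higher, at a median GC content of 48.8%, and their median went from -0.06 to -0.02 without the GC curve. Snap29 lay at 10.8 and 11.1 FPKM in the wild-type pair against 8.15 and 9.93 in the transgenic pair (log2 fold change -0.25 ± 0.15, limma adjusted p = 1.00), and Stx3, another plasma membrane syntaxin, at 9.55 and 8.93 against 7.93 and 8.17. In both, the transgenic libraries were below the wild-type ones. Of the 69 compared genes of the set, 9 were separated in this direction and 7 in the other. Of all genes compared, 9.03% and 12.2% were. Vamp7, a SNARE also of lysosomes, lay at 23.7 and 20.4 against 17.3 and 20.4, a difference in number 1 alone. Stx1a held only 13.1% to 20.3% of the FPKM of 5 plasma membrane syntaxins, of which Stx4a had a mean of 11.5 FPKM. Snap25 held 17.6% to 23.5% of its family, behind Snap47 with 33.4, and Vamp2 held 25.9% to 42.1% of the 6 VAMPs.

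Among SM proteins and other SNARE regulators, Stxbp2 was higher in both transgenic libraries (15.7 and 15.1 FPKM against 17.3 and 16.5), and Stxbp6 was lower (8.15 and 7.11 against 6.88 and 6.50). Of the 13 compared in this role, 5 were higher and 4 lower in both numbers. Among 8 compared synaptotagmins other than the members, some of which bind no calcium, 5 were lower and 1 higher in both numbers, at a median GC content of 50.2%. Syt14, a synaptotagmin without calcium binding, lay at 7.27 and 8.21 FPKM in the wild-type pair against 5.93 and 6.72 in the transgenic pair, an even -0.26 and -0.25 by number (-0.26 ± 0.14, limma adjusted p = 1.00). Syt3 was higher in both transgenic libraries (2.51 and 2.62 against 3.68 and 2.96), and Syt4 lay at 45.0 and 32.9 against 37.2 and 30.8.

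RAB genes and effectors held 5 higher and 4 lower in both numbers of 14 compared. Sytl1, a relative of granuphilin, lay at 10.8 and 6.31 FPKM in the wild-type pair against 14.3 and 8.71 in the transgenic pair (0.38 in number 1 and 0.41 in number 2, 0.40 ± 0.34 over all). Madd, an exchange factor for RAB3, lay at 21.6 and 24.8 against 27.3 and 26.1, and Rph3al, the RAB effector NOC2, at 37.1 and 28.9 against 37.8 and 35.9. Of 12 priming and scaffold genes 2 were higher and 3 lower in both numbers: Pclo (Piccolo) lay at 8.81 and 8.66 against 7.97 and 7.52, Ppfia3 at 1.94 and 1.60 against 2.43 and 1.92, and Baiap3 at 27.0 and 28.1 against 38.5 and 27.5. The 10 exocyst genes, which tether vesicles, had a median of -0.04. Those with the smallest p-values were Exoc5 (3.56 and 3.31 against 3.15 and 2.99), Exoc3l (1.23 and 1.02 against 1.39 and 1.30) and Exoc7 (9.10 and 10.0 against 10.9 and 9.97). These p-values were large, at 0.371, 0.440 and 0.441 (limma, unadjusted).

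Within this wider set, the genes with a miR-29 seed match in a 3' UTR were mostly lower, though 0 were called. Of the 12 compared, 8 were lower in both numbers and 0 higher, with a median log2 fold change of -0.06. The 12 included Stx3, Syt14, Pclo, Exoc5 and Unc13b. The other 4 were mixed between numbers, among them Stxbp3 (4.96 and 8.18 FPKM in the wild-type pair against 5.49 and 7.95 in the transgenic pair). In 5 of the 12 both transgenic libraries were below both wild-type ones, where 9.03% of all genes compared were (1148 of 12716). The same held for 960 of the 6323 compared genes under 50% GC. It held for 177 of the 1768 compared protein-coding genes with a match. Of all compared genes under 50% GC, 43.7% were lower in both numbers. Of the 53 without a match, 17 were lower and 15 higher, with a median of 0.00. All compared protein-coding genes with a match had 31.2% lower in both numbers and a median of 0.01, and those without 26.3% and 0.02. The median GC content was 47.4% with a match and 49.7% without one in the wider set, and after removal of the GC curve their median fold changes were -0.03 and 0.01. Stx1a, the member with a match, was higher. The part of miR-29 in these values was not tested.

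Among the genes of the members and the wider set whose pattern over the 4 libraries came closest to Stx1a were Ppfia3 and Syt3, at distances of 0.17 and 0.23. Closest to Sytl4 were Stxbp3, Syt11 and Cadps, at 0.15, 0.18 and 0.21. The distance is the Euclidean one between log2(FPKM + 1) values centred on each gene's mean, among 77 genes and over 4 libraries.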

How the data were processed

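Islet RNA of 2 wild-type and 2 transgenic samples, grouped by the titles and genotype labels, was compared. The authors deposited FPKM per gene; HTSeq 0.6.0 and GRCm38 are given per the submitters' processing notes, and aligner, annotation and strand setting are not given in the sources used here, so overlapping or antisense genes cannot be told apart. Libraries used Illumina TruSeq kits with 1 ug of total RNA, per the labels' protocols. FPKM times gene length was a whole multiple of 1 step per library (tolerance 0.001) for 100% of values above 0; these were taken as reads. At least 1 FPKM in 2 libraries was required. The test was limma 3.58.1 (R 4.3.3; eBayes with trend) on log2(FPKM + 1), which understates folds of low genes, with genotype alone, 2-sided, Benjamini-Hochberg over 12716 genes, threshold 0.05. It was tested on simulated data. GC content came from GENCODE M21 transcripts (12705 genes). Alternatives were pseudocount, filters, scaling, voom, the library number as a block, GC removal and leaving out each library. Named genes are the 9 members, Onecut2, up to 3 genes per role of the wider list with the smallest p, and 3 nearest in pattern to Stx1a and to Sytl4, of which 1 gene is not reported here; Syt1, Syt2, Rab3d, Rims1, Rims3, Stx4a, Snap47, Unc13b and marker genes were added for levels or sequence. The members and lists were chosen with earlier results of these data known. Exact binomial intervals (95%) cover counting error only.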

Additional observations from a re-analysis of the deposited data

How the results depend on the processing

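No member was called under any of the 12 alternatives or on leaving out any of the 4 libraries; the lowest adjusted p of a member was 0.0869 (Stx1a, voom with the replicate block). The calls over all genes were 0 in the main test and stayed 0 except with voom and the replicate number as a block: 176 higher and 41 lower, 52 and 13 with the GC curve also removed, and 189 and 41 over genes of at least 10 reads (chosen after seeing the data). Of the wider list, 1 gene (Sytl1) was higher in the first and 1 in the last of these. Samples of the same number share only a number in the labels; their deviations from the genotype mean had a correlation of 0.775 over genes, and the block leaves a single residual degree of freedom. Directions turned for Snap25 (0.0147 with the GC curve removed, 0.0367 in voom with the block and that curve), Unc13a (-0.0089 and -0.0236) and Syt7 (-0.0162 in the latter). Leaving out 1 library gave -0.30 to 0.12 for Snap25, -0.14 to 0.59 for Vamp2, -0.0942 to 0.42 for Syt7, -0.44 to 0.28 for Sytl4, -0.23 to 0.58 for Rab3a, -0.15 to 0.37 for Unc13a and -0.0312 to 0.27 for Rims2, against 0.24 to 0.49 for Stx1a and 0.07 to 0.39 for Syt13; the sign turned without wild type 2 or transgenic 1, only without wild type 2 for Rims2, and without wild type 1 or transgenic 2 for Snap25. Stx1a and Rims2 were below the filter of 5 FPKM and have no value there. Onecut2 had the same direction in the 3 fits that hold it. With 2 libraries a group, the number of libraries limits the precision of each difference.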
